A study of Ambystoma mexicanum with 61 samples.

Results

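The cloacal chamber of neotenic axolotls was profiled by bulk RNA-seq in 2 libraries, labelled Batch1 and Batch2, out of 61 libraries in all. These 2 libraries were chosen by their tissue label and were set against 30 libraries of 16 other neotenic tissues (bladder, brain, eye, fore limb, gill, gonad, heart, hind limb, intestine, kidney, liver, lung, skin, spleen, stomach and tail). All animals were adult d/d axolotls of 1 year. Neotenic animals had kept their larval form without treatment, whereas the metamorphosed animals behind the other 27 libraries, which include 2 of the cloacal chamber, had been brought through metamorphosis with thyroxine (T4) in their water. Each tissue had 1 library per batch where both were present, and stomach and tail entered with 1. The p-values therefore rest on the spread between the libraries of a tissue, pooled over the tissues with 2 libraries. The paper counts 2 biological replicates of bulk RNA-seq per state, and this spread may also hold technical differences. The labels give neither the sex of the animals nor which walls or glands of the cloaca were taken.

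The cloaca is the common end chamber of the gut, the urinary tract and the genital ducts, and in salamanders the bladder opens into it as well. Its wall holds a mucus-secreting epithelium, glands and a coat of smooth muscle. In other vertebrates its position along the body axis is set by posterior Hox genes and Cdx genes, and its epithelium takes up salt and water before urine and faeces leave the body. Expression is given as CPM, the count of a gene relative to the library total, which was scaled by library size and composition but not by gene length, and was therefore compared between libraries and not between genes. In whole tissue, more cells of a type and more RNA per cell cannot be told apart.

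Library totals of the neotenic cloacal chamber were 8189985 and 9984662 counts, within the range of the other neotenic libraries (2888466 to 16895107, median 7941755.5). Across genes, log2(CPM + 1) of the cloacal libraries correlated with each other at r = 0.968, and their mean correlation with other tissues was highest for intestine (0.906), stomach (0.893) and bladder (0.874) and lowest for brain (0.644). These values describe genes within libraries, and genes are not independent replicates. Batch2 of neotenic stomach and Batch2 of neotenic tail were left out, because the library labelled stomach correlated with tail Batch1 at 0.970 and with stomach Batch1 at 0.831, and the library labelled tail correlated with stomach Batch1 at 0.965 and with tail Batch1 at 0.853. With both kept, 979 genes were enriched in place of 1070. Marker genes of broad cell types were looked at as well. *Epcam*, an epithelial adhesion molecule, was at 1301 and 787.3 CPM in the cloacal libraries, which cannot tell the cloacal chamber from other epithelial organs. The marker lists of endothelium, stromal fibroblasts, stomach glands and dividing cells held no gene that was called higher or lower.

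Which genes set the cloacal chamber apart from the rest of the body was asked first. Each gene was compared between the cloacal chamber and the mean log level of the 16 other tissues with the quasi-likelihood test of edgeR, p-values were adjusted over 19827 genes by the Benjamini-Hochberg method, and genes are called where the adjusted p-value was under 0.05. Genes called higher with a log2 fold change of at least 2 were taken as enriched. There were 1070 enriched genes (5.4% of genes tested) and 394 genes lower by at least 2 on the log2 scale (1.99%). Without regard to size, 2283 genes (11.5%) were higher and 680 (3.43%) were lower, and the log2 fold changes of all tested genes had a median of -0.18. The enriched genes took up 39.1% and 35.9% of the counts of the cloacal libraries, against a median of 6.61% (2.44% to 31.1%) in the other libraries. These genes had been chosen for high values in the same cloacal libraries, which favours a larger share there.

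Many enriched genes were shared with other tissues. The cloacal chamber was the highest tissue by mean CPM for 401 of them, against 5.53% of all genes tested, and it was the second for 308, the third for 193 and lower for 168. The highest of the other tissues was intestine for 368 genes, stomach for 120, liver for 112 and gill for 63. The same count over all genes tested was not taken, so these numbers alone show no excess for any tissue. In 225 of the enriched genes both cloacal libraries were above every other neotenic library, which was the case for 358 genes of all tested (1.81%). Because the enriched genes were chosen on the same libraries, this count and that of the highest tissue were favoured by the choice. A symbol was lacking for 467 of the enriched genes (43.6%), so that the genes named here cover only the annotated share. For 371 enriched genes at least 1 other tissue had no count, where the fitted fold change depends on a small added count. With such tissues set at 3 counts, 944 enriched genes still reached a log2 fold change of 2 and the median of the enriched genes was 2.94, against 3.21 as fitted.

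Leaving out Batch1 or Batch2 of the cloacal chamber left 925 and 869 enriched genes, of which 853 and 785 were among the 1070. Within batches, where a cloacal library was set only against libraries of its own batch, 1033 of the 1070 enriched genes were above the mean of the other tissues in both batches. The 1070 genes had been chosen on these same libraries, which favours such a count, so it is not independent support.

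Among enriched genes with a symbol whose cloacal libraries stood above every other neotenic library, *Pck1* and *Nans* had the largest log2 fold changes. *Pck1*, the cytosolic enzyme that commits carbon to gluconeogenesis, lies on contig AMEXG_0030005621 from 2417784 to 2530879 on the minus strand of the AmexG v3.0.0 assembly. It was at 2749 and 3861 CPM in the cloacal chamber, while the other libraries ranged from 0 to 66.9 CPM with a median of 1.70. No library of another tissue came near either cloacal library, and the next tissue, intestine, averaged 35.1 CPM. The log2 fold change was 10.94 ± 0.48 (SE, n = 2 libraries, edgeR adjusted p = 4.91e-13). These values are of 1 model. Another model on that contig (852333 to 888153, plus strand), named only phosphoenolpyruvate, was at 839.3 and 528.7 CPM with a smaller log2 fold change of 5.92. Its relation to *Pck1* was not tested.

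*Nans*, the enzyme that makes the sialic acid precursor carried on mucins, was at 3680 and 2295 CPM against 0.12 to 242 CPM elsewhere (median 1.08), with a log2 fold change of 10.88 ± 0.46. Its next tissue was again intestine, at 145.9 CPM. *Dao*, a peroxisomal oxidase of D-amino acids, was at 801.1 and 931.3 CPM with intestine next at 590.4 CPM. *Aox1*, aldehyde oxidase, was at 504.9 and 674.8 CPM with liver next at 310.1 CPM. These enzymes all exceeded the next tissue in both cloacal libraries, but *Dao* and *Aox1* by less than 3-fold.

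*Lgals2*, a galectin that binds galactosides, was at 23221 and 11622 CPM in the cloacal chamber, and at 1.596 to 6286 CPM in the other libraries (median 10.0). Both intestinal libraries lay at the top of that range, liver followed at 536.4 and 265.5 CPM, and every other library was at most at 44.8 CPM. Its log2 fold change was 9.82 ± 0.39 against all other tissues and 1.48 ± 0.73 against intestine, where it was not called (adjusted p = 0.405). *Calb1*, a cytosolic calcium buffer of intestine and kidney, was at 10024 and 11903 CPM, and intestine was next with 2618 CPM. *S100a4*, a small calcium-binding protein, was at 265.4 and 292.0 CPM with stomach next at 214.3 CPM. *Slc39a8*, a transporter of zinc and manganese, was at 138.4 and 395.9 CPM with liver next at 63.9 CPM.

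**Figure D1:**
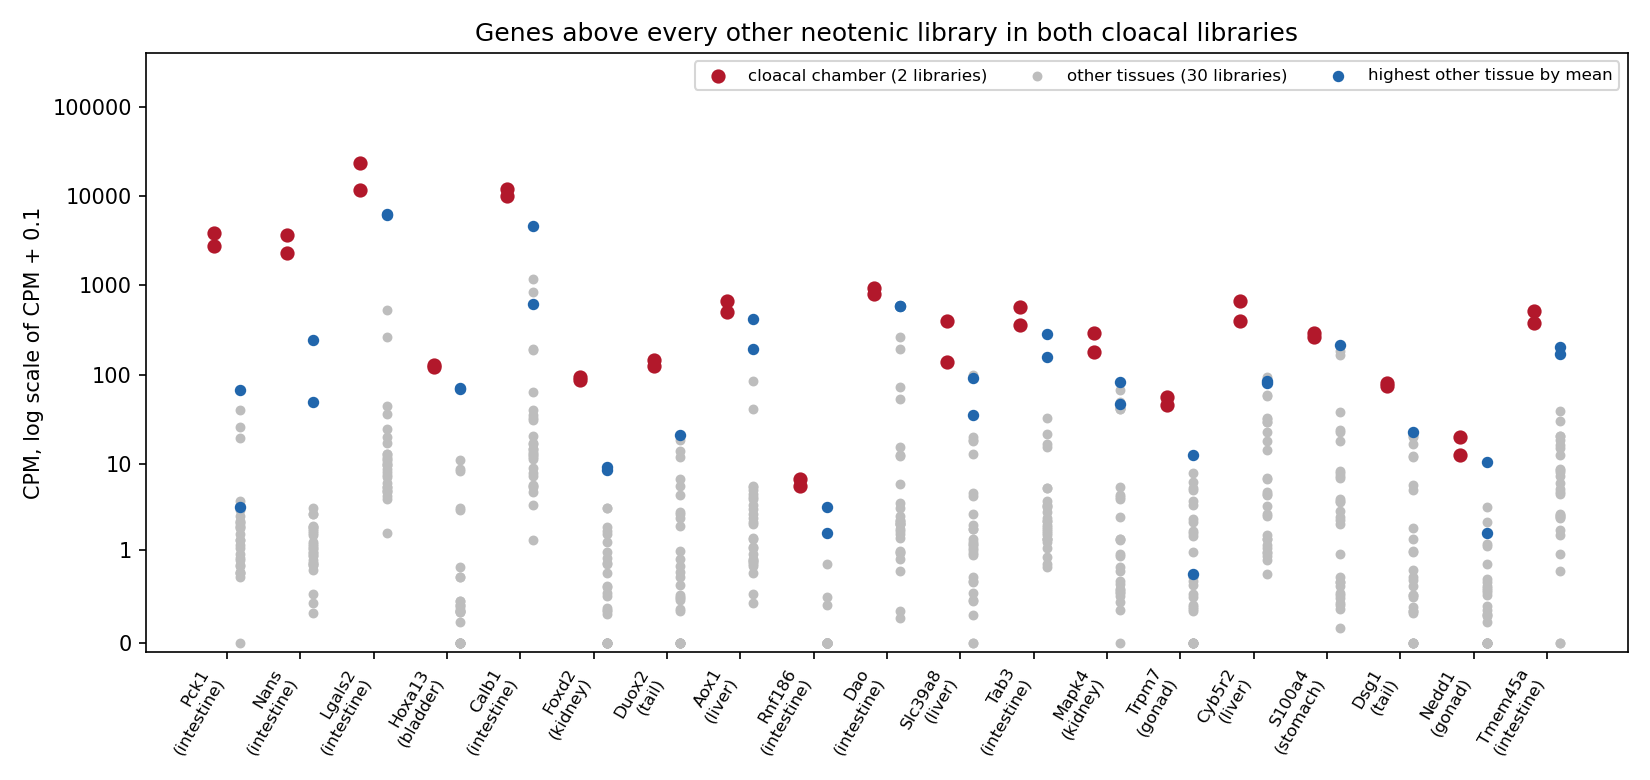
TMM-scaled CPM (log scale of CPM + 0.1) of 19 of the 20 genes with the largest log2 fold change among annotated genes that were enriched, had at least 5 CPM in both cloacal libraries and had both above every other neotenic library. Red points are the 2 cloacal libraries, grey and blue points the 30 other libraries, and blue marks the other tissue with the highest mean, named under each gene. *Pck1* and *Nans* stand farthest above their next tissue, whereas *Dao* and *S100a4* have a next tissue close below.

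The same figure holds a group of regulators and epithelial genes at lower levels. *Hoxa13*, the transcription factor of the most posterior body segments, was at 129.9 and 122.2 CPM and bladder followed at 68.7 and 71.7 CPM. *Foxd2*, a forkhead factor of mesenchyme, was at 95.4 and 86.4 CPM and no other tissue averaged above 8.82 CPM. *Dsg1*, a desmosomal cadherin of stratified epithelium, was at 81.0 and 75.7 CPM, with tail next at 22.8 CPM. *Tmem45a*, a membrane protein, was at 519.2 and 380.8 CPM. *Cyb5r2*, a cytochrome b5 reductase, was at 672.0 and 398.3 CPM. *Tab3* and *Mapk4*, members of kinase pathways, were at 578.9 and 360.7 CPM and at 180.3 and 293.3 CPM. *Rnf186*, a ubiquitin ligase of intestinal epithelium in mammals, was at 5.69 and 6.69 CPM, but 12 other tissues had no count of it, and its log2 fold change of 7.55 became 4.71 with the 14 tissues under 3 counts set at 3 counts. *Trpm7*, a channel and kinase, and *Nedd1*, a centrosomal protein, were among them as well, at 46.4 and 56.0 CPM and at 20.1 and 12.5 CPM.

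A stricter comparison asked which genes exceeded each of the 16 tissues, rather than their mean. By the largest of 16 one-sided edgeR p-values per gene, adjusted over all genes, 8 genes passed (0.0403%), and 131 had an unadjusted p-value under 0.05. They were *Pck1*, *Cyb5r2*, *Phgdh*, *Gcdh*, *Sfxn5*, *Adh5* and the models named LOC100491016 and LOC100490846. *Phgdh*, the first enzyme of serine synthesis, was at 2243 and 1495 CPM, against 113.2 CPM in the next tissue, fore limb. *Gcdh*, which breaks down lysine and tryptophan, was at 3304 and 2941 CPM with kidney next at 487.8 CPM. *Adh5*, the formaldehyde-clearing alcohol dehydrogenase, was at 1586 and 991.8 CPM with hind limb next at 201.2 CPM. *Sfxn5*, of the family of mitochondrial carriers that in humans move serine, was at 203.3 and 143.7 CPM with intestine next at 26.4 CPM. LOC100491016 and LOC100490846, whose names state no function, were at 30154 and 22349 CPM and at 18651 and 13587 CPM, and intestine followed at 364.5 and 237.1 CPM. The count rested on few libraries. It was 0 without intestine Batch1, 2 and 5 without cloacal Batch1 and Batch2, 3 with all libraries of both states in 1 model, 20 with DESeq2 and 21 without gonad, and the last 2 settings included all 8 genes.

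How the functional groups of the cloacal wall behaved was examined with 26 gene lists. The share of members called higher was largest for intestinal epithelium (10 of 12 tested), goblet and mucous cell machinery (9 of 14), Hox genes (10 of 16), smooth muscle (9 of 16) and epithelial junctions (10 of 19), against 11.5% of all genes. Members called lower were most frequent among motile cilium genes (6 of 20) and skeletal muscle genes (4 of 20), against 3.43% of all genes. List members were also compared with intestine, bladder and skin singly, where other shares of all genes apply. Against intestine 2.1% of all genes were higher and 2.15% lower. Against bladder the shares were 5.09% and 4.32%, and against skin 4.66% and 4.87%. At least 1 other tissue had no count for 5212 of the genes tested, and none of these was among the 394 genes lower by at least 2 on the log2 scale.

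**Figure D2:**
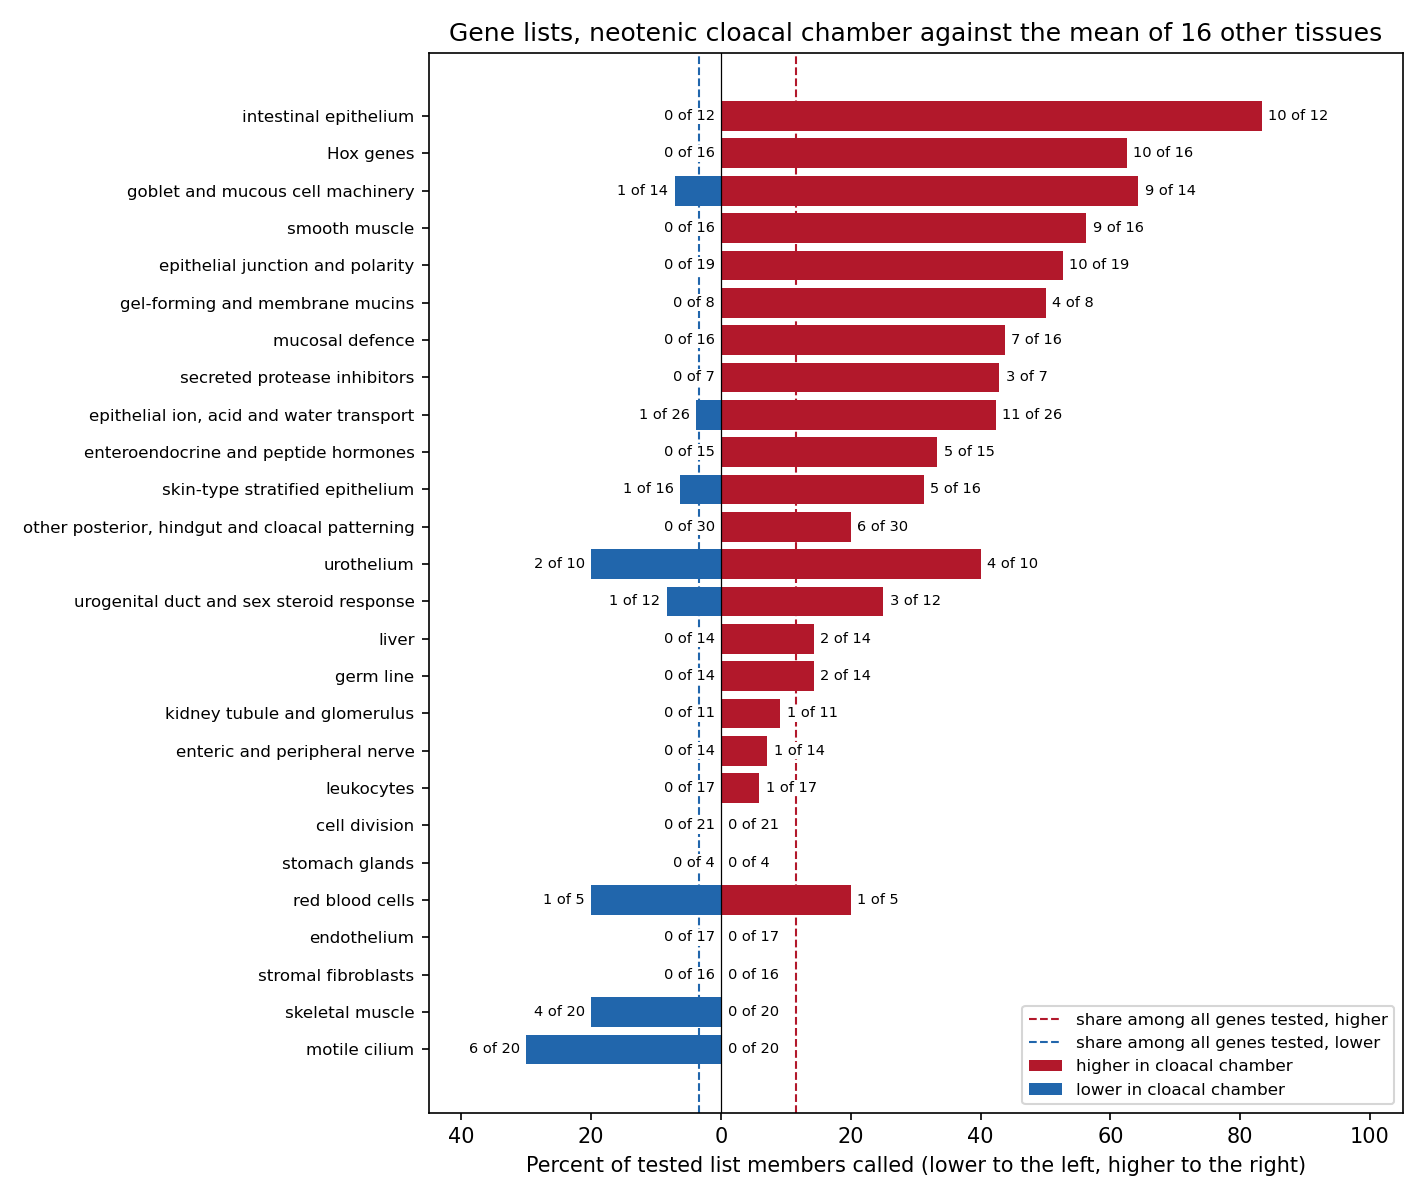
Percent of tested members of each gene list that were called higher (red, right) or lower (blue, left) in the neotenic cloacal chamber than in the mean of 16 other tissues, with the numbers beside each bar. Dashed lines mark the share among all genes tested, 11.5% higher and 3.43% lower. Intestinal epithelium has the longest red bar (10 of 12) and motile cilium the longest blue bar (6 of 20).

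Of the mucins, the large glycoproteins that form or anchor mucus, 4 of 8 tested were higher and none was lower (median log2 fold change 1.68). *Muc2*, the main gel-forming mucin of the gut, was at 638.2 and 2277 CPM in the cloacal chamber, against a median of 1.30 CPM elsewhere (0.22 to 1438). Only intestine, averaging 1183 CPM, was near it, and the log2 fold change was 9.55 ± 0.45 (adjusted p = 1.75e-12). *Muc1*, a membrane mucin, was at 347.4 and 857.9 CPM and ranked below stomach, lung and bladder. *Muc15* was at 11.7 and 39.2 CPM against 0 to 13.9 CPM elsewhere. *Muc5ac*, *Muc5b*, *Muc13* and *Muc16* were not called, with log2 fold changes of -0.57, -0.95, -0.91 and -3.90. In each of the 4 called mucins Batch2 was higher than Batch1. Of the 8 mucins, 2 were higher and none lower than in intestine, 1 was higher and 3 lower than in bladder, and 2 were higher and 1 lower than in skin.

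*Muc4*, a membrane mucin that was called higher, is shown with the in situ probe that the study lists for it. The paper shows this probe on fore limbs, and it also probed *Muc5ac* and *Muc5b* in skin. The probe is printed in the order listed, in lower case, without any marked base.
Muc4 probe: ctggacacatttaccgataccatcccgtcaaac
*Muc4* was at 49.9 and 157 CPM in the cloacal chamber, and at 0 to 328 CPM in other libraries (median 1.75). Gill, fore limb and tail were higher on average, at 197.8, 140.2 and 122.0 CPM. Its log2 fold change was 4.14 ± 0.52 against all tissues and 6.56 against intestine (adjusted p = 0.00343), and it was not called against bladder (0.89) or skin (0.32). The model used lies on contig AMEXG_0030006476 from 926128 to 1057730, and a second model with the same symbol, from 680586 to 925871, was at 50.5 and 97.6 CPM.

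The machinery of mucous cells followed the mucins, with 9 of 14 tested members higher, 1 lower and a median of 2.65. Against intestine none of the 14 was higher and 2 were lower. Against bladder 1 was higher and 2 were lower, and against skin 4 were higher and 1 was lower. *Zg16*, a lectin of goblet cell granules, was at 137.2 and 197.0 CPM but at 2277 CPM in intestine, and its log2 fold change was 5.13 ± 0.26 against all tissues and -3.77 against intestine (adjusted p = 0.000295). A second model of *Zg16* on the same contig was at 1532 and 931.5 CPM, with intestine higher on average and a log2 fold change of 9.10. *Foxa3*, a forkhead factor of endoderm, was at 22.0 and 67.4 CPM, and *Fut3*, a fucosyltransferase of mucin sugars, was at 14.9 and 42.1 CPM. *Galnt12*, which starts O-linked glycans, was at 226.0 and 315.7 CPM, with intestine next at 122.9 CPM. *Agr2*, a disulfide isomerase needed for mucin folding in mouse goblet cells, was the exception at 1.24 and 2.65 CPM (log2 fold change -2.96, edgeR adjusted p = 0.0406). Other libraries ranged from 0.27 to 438 CPM, and skin was highest on average. Intestine was as low as the cloacal chamber, at 0.27 and 1.41 CPM, so low *Agr2* was not particular to the cloacal chamber. Without cloacal Batch2, 5 members of this list were higher and none was lower, and the *Agr2* call was lost under 9 of 40 alternatives, among them leaving out either cloacal library.

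Among secreted protease inhibitors, 3 of 7 were higher. *Spink1*, a trypsin inhibitor, was at 24.2 and 6.81 CPM against 0 to 19.8 CPM, and it was no longer called without Batch1. *Spint1* and *Spint2*, inhibitors of matriptase-type proteases, were at 188.9 and 361.0 CPM and at 1104 and 1089.8 CPM, with log2 fold changes of 1.83 and 1.71, and *Spint1* was no longer called without Batch2.

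The intestinal epithelium list separated into identity factors and absorptive genes. *Cdx1* and *Cdx2*, the homeobox factors of intestinal fate, were at 186.6 and 222.9 CPM and at 80.1 and 180.0 CPM in the cloacal chamber, against 99.4 and 196.2 CPM and 87.0 and 145.2 CPM in intestine. Cloacal chamber and intestine overlapped for both genes, and the medians over all other libraries were 0.064 and 0.090 CPM. Their log2 fold changes against all tissues were 10.70 ± 0.44 and 9.96 ± 0.43. *Hnf4g*, a nuclear receptor of enterocytes, was at 15.8 and 48.2 CPM against 81.9 and 28.6 CPM in intestine, an overlap as well.

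Absorptive genes were far below intestine. *Slc15a1*, the peptide transporter of the brush border, was at 91.7 and 2.89 CPM in the cloacal chamber, against 13160 and 17370 CPM in intestine, a log2 fold change of -8.34 (adjusted p = 0.000346). *Apoa4* and *Apoa1*, apolipoproteins of chylomicrons, were at 175.5 and 3.46 CPM and at 123.1 and 1.39 CPM. *Mttp*, which loads lipid onto apolipoprotein B, was at 34.1 and 11.8 CPM against 3595 and 2452 CPM in intestine. *Vil1*, the actin bundler of microvilli, was at 157.9 and 173.5 CPM in the cloacal chamber, 6.43% and 7.06% of the intestinal mean. *Apob* and *Anpep* were not called against the mean of all tissues and were also far below intestine.

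These absorptive genes differed between the cloacal libraries. As a share of the intestinal mean, *Slc15a1*, *Apoa4*, *Apoa1*, *Anpep*, *Mep1b*, *Apob* and *Mttp* lay between 0.336% and 2.40% in Batch1 and between 0.0189% and 0.389% in Batch2. At least 8-fold differences between the cloacal libraries were found for 39 of 10212 genes, and 26 of these were higher in Batch1. Intestine was the highest other tissue for 15 of the 26, but its share over all 10212 genes was not counted. *Olfm4*, a secreted protein of intestinal crypts, was at 139.1 and 8.54 CPM in the same way. Without Batch1, 5 of the 12 list members were called higher in place of 10. *Slc15a1*, *Apoa1*, *Apoa4*, *Mttp* and *Mep1b* lost their calls, and the first 3 had log2 fold changes of -1.31, -3.01 and -2.44. *Cdx1*, *Cdx2*, *Lgals2*, *Vil1* and *Hnf4g* stayed called without either library. Whether intestinal material had a part in the higher values of Batch1 was not tested.

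**Figure D3:**
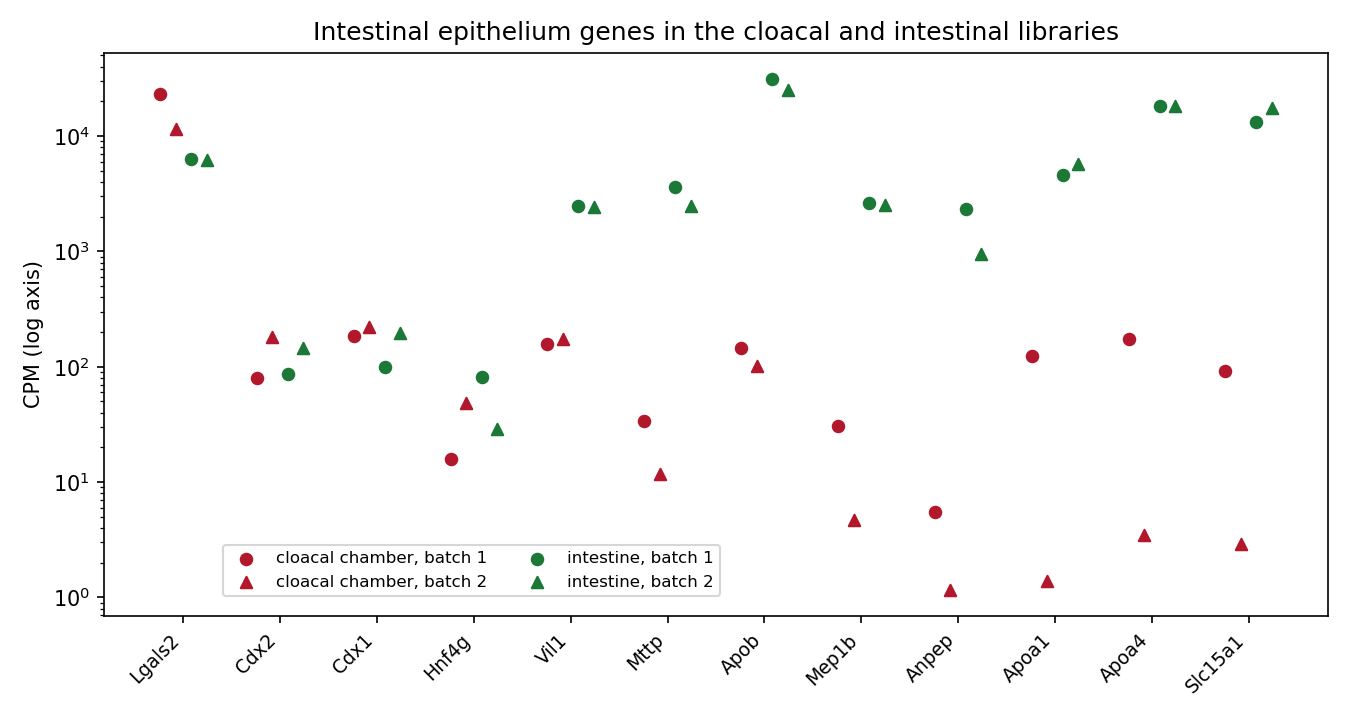
TMM-scaled CPM (log axis) of the 12 tested genes of the intestinal epithelium list in the neotenic cloacal chamber (red) and the neotenic intestine (green), with circles for batch 1 and triangles for batch 2. *Lgals2*, *Cdx2*, *Cdx1* and *Hnf4g* have cloacal points near or above the intestinal points, and *Vil1* and the absorptive genes have intestinal points above the cloacal points, with the wider gap in batch 2 for *Apoa1*, *Apoa4* and *Slc15a1*.

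Genes that place cells at the posterior end of the body were higher as well. Of the Hox genes tested, 10 of 16 were higher, none was lower, and their median log2 fold change was 2.71. *Hoxa13*, at 129.9 and 122.2 CPM in the cloacal chamber, was at 0.135 and 0.604 CPM in intestine and at 0.193 and 0.196 CPM in skin, with log2 fold changes of 8.59 ± 0.39 against all tissues, 8.48 against intestine and 0.84 against bladder (not called). *Hoxd10* was at 10.3 and 9.69 CPM and kidney was higher at 23.9 CPM. *Hoxa10*, *Hoxa11* and *Hoxa9* were at 6.04 and 4.85, 2.84 and 4.39, and 7.995 and 7.04 CPM. *Hoxa3* and *Hoxd3*, from the anterior end of their clusters, were higher too, at 21.0 and 23.3 CPM and at 14.2 and 17.1 CPM. *Hoxa2* and *Hoxa4* were not called (log2 fold changes of -1.37 and -2.10). Against intestine 5 Hox genes were higher, against skin 7 were higher and 1 was lower, and against bladder none was called in either direction.

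*Evx1*, a homeobox factor expressed at the posterior end of vertebrate embryos, was at 22.6 and 18.0 CPM in the cloacal chamber and at 26.6 and 22.4 CPM in the bladder, while no other tissue averaged above 0.34 CPM. Cloacal chamber and bladder overlapped, and 8 of the other tissues had no count of it. Of the list of other posterior and hindgut patterning genes, which also counts *Cdx1* and *Cdx2*, 6 of 30 were higher and none was lower (median -0.83). *Foxf1*, a factor of gut mesenchyme, was at 15.5 and 14.2 CPM, and *Gata6*, a factor of endoderm and its mesoderm, was at 51.0 and 57.0 CPM. *Gata6* had its highest mean in stomach, and *Foxf1* in lung.

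Transport of ions, acid and water was another prominent group, with 11 of 26 tested genes higher, 1 lower and a median of 1.53. *Scnn1b* and *Scnn1g*, subunits of the epithelial sodium channel, were at 245.2 and 225.4 CPM and at 31.3 and 21.4 CPM. *Scnn1b* exceeded every other library (0 to 97.5 CPM), with kidney next at 74.5 CPM and bladder at 69.5 CPM, and its log2 fold change was 5.93 ± 0.40 (adjusted p = 4.41e-10). *Atp12a*, the non-gastric proton-potassium pump, was at 1076 and 712.0 CPM and gill followed at 434.7 CPM, again without overlap. *Trpv6*, the calcium entry channel of absorbing epithelia, was at 44.8 and 27.7 CPM and had no count in intestine. It did not stand above all tissues. Gill was at 53.1 and 40.0 CPM, fore limb at 42.6 and 37.9 CPM and hind limb at 32.8 and 39.7 CPM. *Foxi1*, the factor of acid-secreting cells, was at 25.6 and 17.3 CPM. *Slc4a4*, a sodium-bicarbonate cotransporter, was at 191.9 and 284.6 CPM, with kidney above it. *Slc12a2*, the chloride loader of secreting epithelia, was lower, at 17.9 and 25.5 CPM against a median of 83.8 CPM (log2 fold change -1.90 ± 0.42, adjusted p = 0.00292). The *Slc12a2* call was lost without cloacal Batch1. Of this group 8 genes were higher and 2 lower than in intestine, and 3 were higher and 5 lower than in bladder.

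Junction genes were higher in 10 of 19 cases (median 1.59). *Lad1*, a basement membrane anchor, was at 62.9 and 72.9 CPM and *Grhl2*, a factor of epithelial identity, at 145.3 and 183.9 CPM. Both were above every other neotenic library, although tail Batch1 came close with 61.1 and 136.2 CPM. *Cldn4*, a tight junction protein, was at 204.5 and 217.0 CPM and had 5 tissues above it. Without cloacal Batch1, 5 of the 19 genes were called, so that part of this count rested on that library.

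Genes of mucosal defence were higher in 7 of 16 cases. *Duox2*, the oxidase that releases hydrogen peroxide onto mucosal surfaces, was at 125.8 and 148.2 CPM, while the other libraries reached 21.3 CPM at most (median 0.486). Intestine was far below at 0 and 0.201 CPM, with a log2 fold change of 10.45 (edgeR adjusted p = 0.000381) whose size depends on a small added count. *Duoxa2*, its maturation factor, was at 27.2 and 44.4 CPM. Gonad averaged higher at 115.8 CPM, but by Batch2 alone (3.11 and 228.6 CPM). *Reg4*, a secreted lectin of the gut, was at 27.5 and 13.5 CPM, against 93.4 CPM in intestine. *Pglyrp1*, which binds bacterial cell walls, was at 20.8 and 0.231 CPM, and was among the genes 8-fold higher in Batch1. *Pigr*, the receptor that carries antibodies into secretions, was at 21.0 and 52.1 CPM and was lower than in intestine and bladder. Of the leukocyte list, 1 of 17 was higher. This was *Jchain*, the joining chain of secreted antibodies, at 218.4 and 148.5 CPM against a median of 34.1 CPM, and it was not called without Batch1.

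Smooth muscle genes were higher in 9 of 16 cases (median 1.33). *Acta2*, smooth muscle actin, was at 7985 and 5140 CPM in the cloacal chamber, which ranked below stomach (9615 CPM) and bladder, against a median of 211.1 CPM over all other libraries. *Cnn1*, calponin, was at 1751 and 991.0 CPM, and *Kcnmb1*, a subunit of the calcium-gated potassium channel of smooth muscle, at 154.8 and 59.4 CPM. None of the 16 was called against intestine, and 5 were lower than in bladder, while 8 were higher than in skin.

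Skeletal muscle genes were lower in 4 of 20 cases, and none was higher (median -3.67). *Ckm*, muscle creatine kinase, was at 20.8 and 9.46 CPM against 7.77 to 17602 CPM elsewhere, where limbs and heart were highest. *Atp2a1*, the calcium pump of fast fibres, was at 7.82 and 3.58 CPM. Neither cloacal library was below all others, and *Ckm* and *Atp2a1* were not called without either cloacal library. Without 1 cloacal library none of the 4 calls remained.

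Motile cilium genes were lower in 6 of 20 cases and higher in none (median -1.91). *Armc4*, an assembly factor of ciliary dynein arms, was at 0.178 and 0.346 CPM, against a median of 1.43 CPM and up to 91.6 CPM in gill. The *Dnah5* model with most counts, 1 of 6 with that symbol, had no fragment in either cloacal library, whereas lung, the highest tissue, averaged 13.9 CPM. *Foxj1*, the master factor of motile cilia, had no fragment in either cloacal library and was not called (median elsewhere 0.0969 CPM). Without cloacal Batch1 none of the 20 was called lower and without Batch2 1 was, so that this direction was not stable.

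Urothelium genes went both ways, with 4 of 10 higher and 2 lower. *Pparg*, a nuclear receptor, was at 122.2 and 84.8 CPM and was the highest of all tissues. *Krt18*, a keratin of simple epithelium, was at 5466 and 3764 CPM with stomach near it at 4768 CPM. *Elf3*, an epithelial factor, was at 359.6 and 754.1 CPM. Hind limb was highest at 915.4 and 1290 CPM, and fore limb, gill, intestine and skin also averaged more than the cloacal chamber. *Upk3a*, a plaque protein of the bladder lining, was at 0.888 and 0.692 CPM against 100.5 and 95.4 CPM in bladder, and *Gata3* was at 1.07 and 2.89 CPM against 149.5 CPM. Against bladder both were lower (log2 fold changes of -6.95 and -6.19). Their adjusted p-values against all tissues were 0.0421 and 0.0168 in edgeR, and their calls were lost under 21 and 4 of 40 alternatives, among them leaving out either cloacal library. Without Batch1, 3 genes of this list were higher and none was lower, and without Batch2, 2 were higher and none was lower, with *Elf3* no longer called.

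Of the skin-type stratified epithelium list, 5 of 16 were higher and 1 was lower (median -0.57). The desmosomal genes *Dsc3* and *Pkp3* were called higher like *Dsg1*, at 532.3 and 693.8 CPM and at 63.3 and 80.4 CPM. Unlike *Dsg1* they overlapped other tissues. *Dsc3* was at 620.2 and 428 CPM in intestine. *Pkp3* was at 92.0 and 110.4 CPM in fore limb, and was higher in tail and skin as well. *Krt4*, a keratin of wet stratified epithelium, was at 22.4 and 32.7 CPM against 8495 and 15999 CPM in skin. In this list 8 of the 16 genes were lower than in skin. Without Batch2, 3 of the 16 were higher than the mean of the other tissues, and the *Krt4* call was lost without either cloacal library.

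Peptide hormone genes were higher in 5 of 15 cases (median 1.01). *Vip*, vasoactive intestinal peptide, was at 57.9 and 45.0 CPM and matched intestine at 53.1 CPM. *Gcg*, the proglucagon gene, was at 47.1 and 41.9 CPM, with stomach above it at 197.2 CPM. *Chga*, a granule protein of endocrine cells, was at 54.4 and 88.8 CPM and brain was highest. Of the nerve list only *Syt1*, a sensor of vesicle release, was called, at 3.02 and 2.77 CPM.

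In the urogenital duct and sex steroid list 3 of 12 genes were higher and 1 was lower. *Srd5a1*, a steroid 5-alpha-reductase, was at 22.0 and 20.9 CPM, just above the highest other library (20.5 CPM), with a log2 fold change of 2.02. *Srd5a2*, the isoform of male genital tissue in mammals, was at 78.5 and 43.9 CPM with intestine above it at 152.6 CPM. *Foxa2*, a factor of endoderm, was at 9.59 and 5.19 CPM. It was higher in lung (76.1 and 76.8 CPM), liver (94.5 and 14.3 CPM) and stomach (62.5 CPM). *Gata2* was lower, at 1.24 and 1.96 CPM against 229.3 CPM in bladder. *Foxa2* and *Srd5a2* were not called without Batch1, and *Gata2* was not called without either cloacal library or with all libraries of both states in 1 model.

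The lists of other organs were small, and their calls stand beside 11.5% of all genes called higher and 3.43% called lower. *Calb1* was the only member of the kidney list to be called (1 of 11). *Serpina1*, a plasma protease inhibitor, at 522.0 and 452.8 CPM, and *Hpn*, a membrane protease, at 9.59 and 7.04 CPM, were the called members of the liver list (2 of 14), in which liver itself was highest. *Spata16* and *Piwil4* were called in the germ line list (2 of 14), at 7.11 and 1.5004 CPM and at 2.13 and 1.39 CPM, that is, at few fragments. Of 5 red blood cell genes *Slc4a1*, also counted among the transporters, was higher at 95.9 and 112.4 CPM. Spleen was far above it at 1617 and 1968 CPM, and bladder, kidney and heart also averaged more than the cloacal chamber. *Sptb*, erythroid spectrin, was lower at 0.533 and 0.231 CPM. The calls of *Slc4a1* and *Sptb* were lost without cloacal Batch2, and that of *Slc4a1* also with stomach Batch2 and tail Batch2 kept.

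Of genes that had at least 5 CPM in every other neotenic library, those with the most negative log2 fold change included *Ckm*, *Fabp3*, *Krt4* and *Atp8a1*. *Atp8a1*, a phospholipid flippase, was at 3.20 and 4.62 CPM, below each of the 30 other libraries (13.3 to 304.6 CPM, median 28.8), as were 109 of all genes (0.55%). Its log2 fold change was -3.18 ± 0.37 (adjusted p = 1.47e-06). *Fabp3*, the heart fatty acid carrier, was at 6.57 and 7.39 CPM.

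The next question was where the cloacal chamber differs from the organs it joins. Against intestine, 417 genes were higher (2.1%) and 426 lower (2.15%). Against bladder, 1010 were higher (5.09%) and 856 lower (4.32%), and against skin 923 were higher (4.66%) and 966 lower (4.87%). These comparisons share the cloacal libraries. The genes lower than bladder included 15 of the 20 skeletal muscle genes tested, and the 2 bladder libraries differed in such genes. *Ckm* was at 9.78 CPM in bladder Batch1 and at 4225 CPM in bladder Batch2, and *Atp2a1* was at 4.89 and 3724 CPM. Of the 1070 enriched genes, 224 were also higher than intestine and 39 lower (median log2 fold change 0.98), whereas 528 were higher than bladder (median 2.71) and 560 higher than skin (median 2.99), with 2 lower in each case. The enriched genes had been chosen on these cloacal libraries, against a mean that includes intestine, bladder and skin. That choice favours higher calls and positive medians here. The counts depended on the spread set by other tissues. Without both gonad libraries 1680, 3630 and 3550 genes were called against intestine, bladder and skin in place of 843, 1866 and 1889.

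*Rpp25*, a subunit of RNase P, was at 66.3 and 78.5 CPM in the cloacal chamber and had no count in either intestinal library. The *Trpm7* model used here and *Trpv6* were likewise at 0 in intestine. Further models named *Trpm7* on the same contig were at 4.62 and 6.12 CPM and at 13.3 and 17.4 CPM in the cloacal chamber. The value of 0 therefore holds for the model and not for the whole gene. In the other direction, *Creb3l3*, a factor of lipid metabolism, *Abcg5*, a sterol exporter, and *Slc2a9*, a urate transporter, had no count in either cloacal library, and at a floor of 3 counts over both cloacal libraries they were at least 157.8-fold, 142.8-fold and 110.5-fold lower than in intestine. Intestinal Batch1 was higher than Batch2 for all 3 genes, for example 46.7 and 12.9 CPM for *Creb3l3*, and all 3 calls were lost without cloacal Batch2.

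Against bladder, *Pck1* (log2 fold change 12.37), *Cdx1* (11.69) and *Nans* (11.56) led the genes with an annotated symbol. *Cdx1* was at 0 and 0.082 CPM in bladder, so that its value and rank depend on a small added count. *Slc5a5*, the iodide transporter, was at 0 in the cloacal chamber and at 40.8 and 10.4 CPM in bladder, which made it at least 110.4-fold lower. *C1qtnf3* and *Fbln2*, secreted proteins of connective tissue, were at 0 as well and at least 51.0-fold and 43.0-fold lower. The calls of *C1qtnf3* and *Fbln2* were lost without either cloacal library and that of *Fbln2* also without bladder Batch1, and that of *Slc5a5* was lost without cloacal Batch2 and with DESeq2. Against skin, *Tmigd1*, an adhesion protein of the brush border at 199.6 CPM on average, led such genes (11.88), followed by *Cdx2* and *Lgals2*. In skin *Tmigd1* and *Cdx2* were each at 0.064 and 0 CPM, with the same limit. *Lgals1*, another galectin, had 0 and 0.231 CPM in the cloacal chamber and 239.7 and 2193 CPM in skin. *Cd109*, a surface protein of keratinocytes, had 0.355 and 0 CPM against 355.1 and 490.0 CPM. *Thdl17*, for which no role is given here, had none against 117.0 and 32.01 CPM, at least 397-fold lower.

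**Figure D4:**
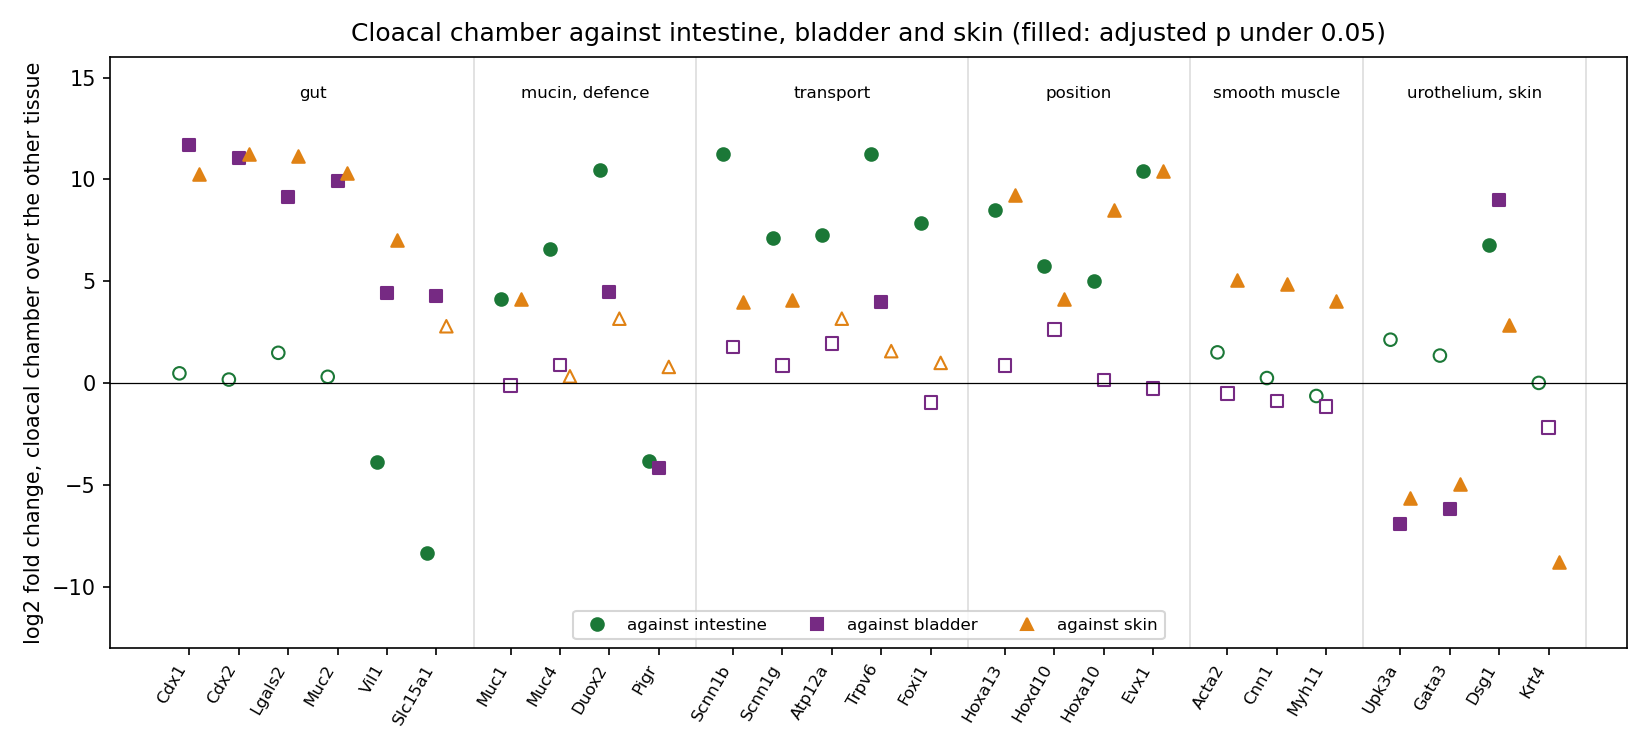
Log2 fold change of the neotenic cloacal chamber over intestine (green circles), bladder (purple squares) and skin (orange triangles) for named genes, grouped by role; filled symbols were called at an adjusted p-value under 0.05 in edgeR. Posterior genes such as *Hoxa13* and *Evx1* are high against intestine and skin and near 0 against bladder, whereas *Cdx1*, *Cdx2*, *Lgals2* and *Muc2* are high against bladder and skin and were not called against intestine.

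Finally, it was asked whether the same genes marked the cloacal chamber after metamorphosis. In a separate model of the 27 metamorphosed libraries, 836 of 18916 genes were enriched (4.42%) over the mean of 14 other tissues. Of the neotenic enriched genes, 1048 could be tested there, 985 had a positive log2 fold change, 711 were called higher, against 7.08% of all genes, and 637 were enriched. These 637 made up 60.8% of the neotenic genes and 76.4% of the metamorphosed genes. The median log2 fold change of the neotenic enriched genes was 2.53 in metamorphosed and 3.21 in neotenic animals. The neotenic value had been used to choose the genes, which favours a higher neotenic value. The tissues averaged were also not identical, and skin Batch1 of the metamorphosed animals held only 69278 counts.

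*Pck1* was at 3657 and 2346 CPM in the metamorphosed cloacal chamber, *Lgals2* at 5760 and 12545 CPM, *Hoxa13* at 98.6 and 94.6 CPM and *Duox2* at 149.8 and 104.7 CPM, all called higher there as well. *Muc4* was at 236.6 and 43.3 CPM in metamorphosed animals, with a log2 fold change of 7.34 there and 4.14 in neotenic animals. *Gcg* was at 9.42 and 9.36 CPM in metamorphosed animals, against 47.1 and 41.9 CPM in neotenic animals, with log2 fold changes of 0.44 and 5.40. *Zg16* had log2 fold changes of -0.22 and 5.13, and *Spink1* of 0.85 and 3.21. Of the absorptive genes, *Slc15a1*, *Apoa1*, *Apoa4*, *Mttp* and *Mep1b* had negative, uncalled log2 fold changes in metamorphosed animals.

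The difference in enrichment between the states was tested as an interaction over the 14 tissues that both have. No gene passed in edgeR (0 of 20220), with 310 genes at an unadjusted p-value under 0.05 toward the neotenic and 159 toward the metamorphosed side, and the count was also 0 with DESeq2 size factors and with batch as a block. For *Muc4*, *Gcg* and *Zg16* the interaction was -3.12, 4.86 and 5.19 on the log2 scale, with adjusted p-values of 1, 0.955 and 1. Tissues entered with 2 libraries per state or, for neotenic stomach and tail and metamorphosed brain, fore limb and heart, with 1, and a missing call does not show that the enrichment was equal in both states.

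**Figure D5:**
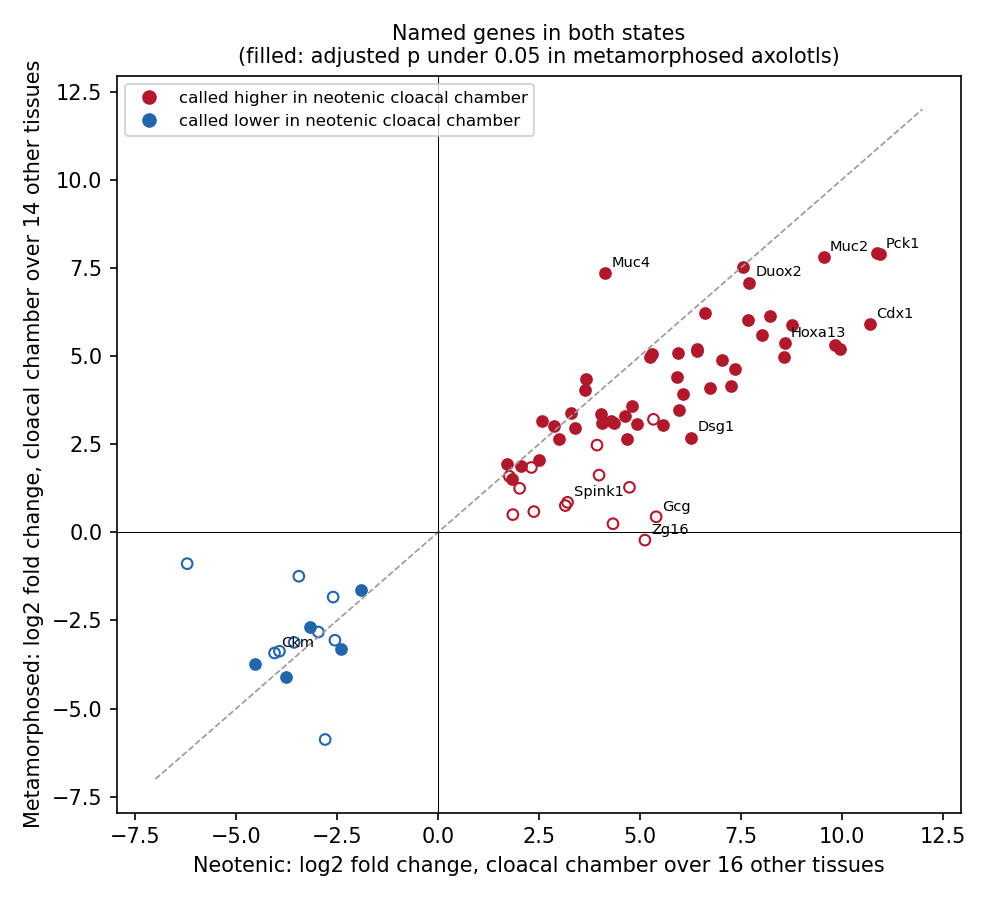
Log2 fold change of the cloacal chamber over the mean of other tissues in neotenic axolotls (x axis, 16 tissues) and metamorphosed axolotls (y axis, 14 tissues) for 77 named genes, red where called higher and blue where called lower in neotenic animals, and filled where called in metamorphosed animals (edgeR adjusted p under 0.05). Most red points are filled and lie under the dashed line of equal values, *Muc4* lies above it, and *Gcg* and *Zg16* are near 0 in metamorphosed animals.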

How the data were processed

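RNA had been extracted from each tissue with TRIzol, reverse transcribed and tagmented (Nextera), without strand information. The authors deposited raw counts of fragments on the exons of 23251 gene models, made with featureCounts v1.6.0 against the AmexG v3.0.0 annotation, per the file headers; STAR is named as the aligner. Fragments shared by near-identical or overlapping genes cannot be assigned with certainty, and 1 model per symbol, that with the largest count, stood for it. Columns of comparisons were not involved.

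Groups were taken from the labels. Genes were filtered with filterByExpr and scaled by TMM, and edgeR 4.0.16 in R 4.3.3 was fitted with 1 coefficient per tissue to 32 neotenic libraries (common dispersion 0.237). A gene in all 16 tissues was called higher than each where the largest one-sided p-value passed after Benjamini-Hochberg adjustment. CPM are TMM-scaled. SE are from the model. The model was tested on simulated counts. Genes were named by rule: the 20 largest fold changes among enriched genes with a symbol, at least 5 CPM and both libraries above all others; in each of 26 lists (686 symbols) the 3 highest called and 2 lowest called; the 5 most negative of genes at 5 CPM or more in every other library; *Lgals2*; and, against intestine, bladder and skin, the 3 largest and 3 smallest called fold changes. A few genes that the rule takes in are not reported here. Other list members and genes above each tissue were named after their values were seen. The lists and comparisons were chosen with earlier results of these data known.

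The batch labels pair libraries. The batch difference of the cloacal chamber correlated with that of 14 other tissues at a median of 0.162 (-0.0759 to 0.518). Alternatives were DESeq2 1.42.0, its size factors, no filter, other fold change thresholds, summed models, batch as a block, all libraries in 1 model, the left-out libraries, no gonad, and each library left out in turn, which kept the genes and dispersion trend of the full model for the 30 other libraries. The value with tissues under 3 counts set at 3 was added after seeing the data.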

Additional observations from a re-analysis of the deposited data

How the results depend on the processing

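Genes named by rule changed direction in none of 3799 refits of 95 gene comparisons, and 93 refits, in 25 comparisons, lost the call. Outside the rule, *Slc15a1*, *Apoa1* and *Apoa4* turned to -1.31, -3.01 and -2.44 without cloacal Batch1. Genes enriched in the cloacal chamber numbered 1967 and 334 at log2 thresholds of 1 and 4 (1070 at 2), and 869 (without cloacal Batch2) to 1185 (without gonad Batch1) when 1 library was left out. Genes lower by 2 or more (394) numbered 639 and 77 at thresholds of 1 and 4, 821 with DESeq2 and 601 without gonad, and 121 (without cloacal Batch1; 127 without Batch2) to 615 (without gonad Batch2) with 1 library left out. Genes above each tissue (8) numbered 3 with all libraries in 1 model, 20 with DESeq2 and 21 without gonad, and 0 (without intestine Batch1) to 15 (without either gonad library), with 5 also without heart Batch1, hind limb Batch2 or either kidney library. Against intestine (843) there were 1328 genes with DESeq2 and 1680 without gonad, and 456 to 1571 with 1 library left out. Against bladder (1866) the values were 2815, 3630 and 722 to 3456. Against skin (1889) they were 3550 without gonad and 971 to 3383 with 1 library left out. In these pairs the low ends came from leaving out a library of the pair and the high ends from leaving out a gonad library, and the gonad libraries were unlike each other in their correlation with the cloacal libraries (0.654 to 0.833); the cause was not tested. Genes enriched in the metamorphosed cloacal chamber (836) numbered 628 with DESeq2, and 487 (without its Batch1) to 821 (without skin Batch1) with 1 library left out. The libraries left out in turn there were its Batch1, its Batch2 and skin Batch1. With batch as a replicate block, 1066 genes were enriched, 418 lower by 2 or more, 9 above each tissue, 911, 2051 and 2059 called against intestine, bladder and skin, 932 enriched after metamorphosis and 0 in the interaction, and no count moved by over 1.5 times. Of list counts, 1934 of 2080 stayed within 1.5 times. With DESeq2, 11 motile cilium and 12 skeletal muscle genes were lower, and with all libraries in 1 model 6 intestinal epithelium genes were higher. Depth was 8189985 and 9984662 counts, so that genes under about 0.4 CPM rested on few fragments, and a missing call says nothing of their absence.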

Other observations

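Several genes outside the lists, named here after their values were seen, carried much of the cloacal signal. A pair of models named ferritin, the iron store, were at 62577 and 23201 CPM and at 47134 and 19694 CPM. Intestine was next at 33030 and 23266 CPM on average, above cloacal Batch2 in both models. Against intestine neither model was called (log2 fold changes of 0.38 and 0.52). *Prdx6*, a peroxide-clearing enzyme, was at 22128 and 13582 CPM with a log2 fold change of 5.12 against all tissues and 2.33 against intestine (edgeR adjusted p = 0.00666). *Gstp1*, a glutathione transferase, was at 8743 and 6275 CPM and had a log2 fold change of 5.56, and *Lgals9c*, another galectin, was at 9133 and 11040 CPM. *Psat1*, the enzyme that follows *Phgdh* in serine synthesis, was at 1548 and 1304 CPM with a log2 fold change of 5.02. *Maob*, a monoamine oxidase, was at 1553 and 3441 CPM, and *Slc40a1*, the iron exporter ferroportin, was at 427.5 and 2593 CPM. Against intestine *Psat1* was called higher (log2 fold change 3.18), whereas *Gstp1*, *Lgals9c*, *Maob* and *Slc40a1* were not called. Intestine averaged 2038 CPM for *Maob*.

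*Duox2* (5057873 to 5063789, minus strand) and *Duoxa2* (5170028 to 5395496, plus strand) shared contig AMEXG_0030000275. *Dsc3* (2312402 to 2421625) shared contig AMEXG_0030000362 with a *Dsg1* model (4220766 to 4326400) and with a second *Dsg1* model (4205591 to 4220233) at 3.20 and 3.23 CPM, and adjoining models of a symbol may be pieces of 1 gene.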
